A study of Mus musculus with 6 samples.

Results

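Replacement histones are histones that can be built into chromatin outside DNA replication, in place of the canonical histones that are made in S phase. 8 genes that encode such histones were examined in mouse embryonic stem (mES) cells: H2afz and H2afv, which encode H2A.Z, H2afx (H2A.X), H2afy (macroH2A), H2afj (H2A.J), H3f3a and H3f3b, which encode H3.3, and H1fx (the linker histone H1X). They were picked by gene name, and all 8 were found among the 22602 genes listed and passed the filter on low values. The 3 Sim2 clones, A6, B8 and C4, carry a Flag-tagged mouse Sim2 gene with an IRES-Venus reporter under the hCMV*-1 promoter, which the tetracycline-regulated transactivator switches on once tetracycline is removed. The control was EB3 (EBRTcH3), the parental line of the clones, which has no Sim2 transgene, in 3 independent cultures numbered 0, 1 and 2. All 6 cultures were grown on gelatin with serum and leukemia inhibitory factor and were kept without tetracycline for 26 h before the RNA was taken, and cultures kept in tetracycline were not analysed here. Each Sim2 library is 1 culture of 1 clone, whereas all EB3 cultures belong to a single line, so the effect of the transgene and differences that arose when the clones were derived cannot be told apart.

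H2A.Z lies in the nucleosomes that flank active promoters and enhancers and at the poised developmental genes of ES cells, and it is exchanged for H2A by the SRCAP and p400-TIP60 complexes. H2A.X is phosphorylated around DNA breaks, and macroH2A, which carries a large extra domain, is enriched on the inactive X chromosome and at silent genes. H3.3 is placed at active genes by HIRA and at telomeres and repeats by ATRX with DAXX. Unlike the clustered histone genes, most replacement histone genes give polyadenylated mRNA, which is what these libraries captured.

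The H2A.Z genes and the H3.3 genes each form a pair that encodes nearly the same or the same protein, with a different choice of bases. The first 150 coding bases of each pair are shown because they tell whether a sequenced read can be assigned to one gene of the pair. Capitals mark the bases that differ from the first gene of the pair. The sequences are from the mm9 reference and its annotation, and they join several exons.
H2afz (chr3:137527658-137528552, + strand): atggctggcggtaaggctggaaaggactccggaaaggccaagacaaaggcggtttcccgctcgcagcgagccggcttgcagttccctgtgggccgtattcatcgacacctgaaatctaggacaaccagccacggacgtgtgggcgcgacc
H2afv (chr11:6333772-6344342, - strand): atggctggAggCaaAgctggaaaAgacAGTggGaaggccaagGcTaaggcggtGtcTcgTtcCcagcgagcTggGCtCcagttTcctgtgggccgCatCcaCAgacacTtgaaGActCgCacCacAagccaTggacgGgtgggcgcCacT
H3f3a (chr1:182740380-182742057, - strand): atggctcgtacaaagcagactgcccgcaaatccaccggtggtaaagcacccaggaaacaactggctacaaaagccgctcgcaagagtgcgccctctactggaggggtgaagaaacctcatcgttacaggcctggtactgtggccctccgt
H3f3b (chr11:115885071-115885323, - strand): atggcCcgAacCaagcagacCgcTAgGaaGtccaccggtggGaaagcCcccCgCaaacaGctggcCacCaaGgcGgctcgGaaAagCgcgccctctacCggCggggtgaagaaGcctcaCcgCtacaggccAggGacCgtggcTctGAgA
Within these 150 bases H2afv differs from H2afz at 34 positions and H3f3b differs from H3f3a at 32. Over the 387 coding bases of the H2A.Z genes 81 differ, and 3 of 128 residues are not the same. Over the 411 coding bases of the H3.3 genes 95 differ and 0 residues do. The genes of a pair are therefore told apart by sequence, while several members have closer matches elsewhere in the genome, which are described below with the values they touch.

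The mRNA levels are given as RPKM, which allows for the different lengths of genes but not for any reads lost at exon junctions. RPKM is the reads of a gene scaled to its cDNA length in kilobases and to the reads counted over all listed genes. The reads counted over the listed genes were 25095861 to 28269340 per library. Differences were tested with limma over 11595 genes with a mean of at least 1 RPKM, on log2(RPKM + 0.5), and were called where the adjusted p was under 0.05. Positive log2 fold changes mean a higher level in the Sim2 clones. Sim2 itself read 196, 212 and 168 RPKM in A6, B8 and C4, and 0.130, 0.0917 and 0.104 RPKM in EB3-0, EB3-1 and EB3-2, which matches the labels. All 7 ES cell markers were high in each library, with summed levels of 5500 to 6660 RPKM in the Sim2 clones and 5540 to 6980 RPKM in EB3, and none was called, while without EB3-0 Zfp42 was called lower (-0.29). EB3-0 stood apart from EB3-1 and EB3-2, which were close to each other, and values without EB3-0 are given beside the members and lists whose direction, call or size changed with it. The fit without EB3-0 called 5.99% of all tested genes, against 0.699% with all 6 libraries, and each call without EB3-0 is to be read beside that share.

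Among the 8 genes, 1 was called, H2afz, which was lower in the Sim2 clones. Of all tested genes 0.699% were called, and 0.354% were called lower. The values of the 2 groups did not overlap for 4 members, H2afz, H2afj, H3f3a and H3f3b, each lower in the Sim2 clones, against 13.4% of all tested genes. The median log2 fold change was -0.14 over the members and -0.01 over all tested genes. At an unadjusted p under 0.05 there were 3 members, H2afz, H3f3a and H2afj, while 17.8% of all tested genes were under it.

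**Figure D1:**
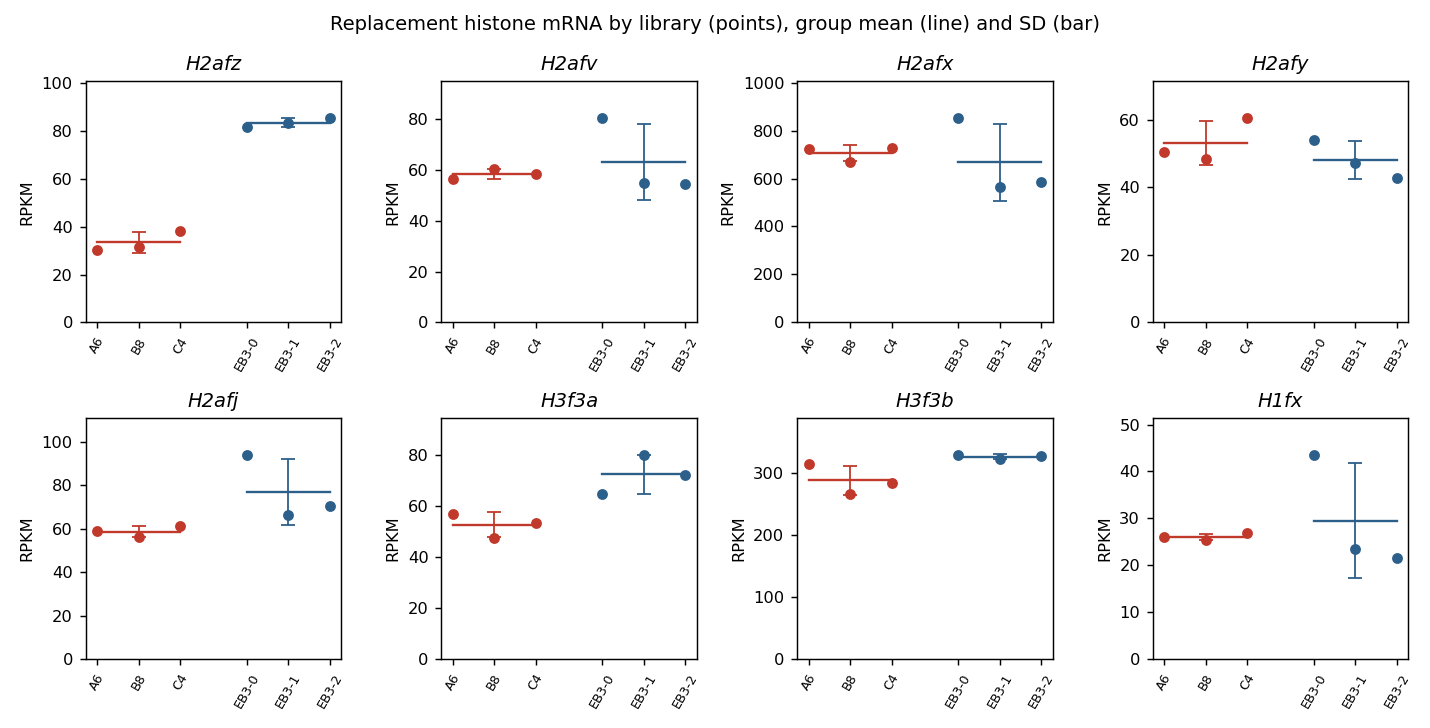
RPKM of each replacement histone gene in the 6 libraries, Sim2 clones in red and EB3 in blue, with the group mean (line) and SD (bar, n = 3), on axes that start at 0. H2afz lies at 30.4 to 38.4 RPKM in the clones and 81.8 to 85.6 RPKM in EB3. EB3-0 is the highest EB3 library for H2afv, H2afx, H2afy, H2afj and H1fx and, narrowly, for H3f3b.

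H2afz encodes H2A.Z.1, the major form of H2A.Z in many tissues, which mouse embryos need to develop beyond implantation. The gene is listed at chr3:137527563-137529886 on the + strand with a cDNA of 957 bases. H2afz read 30.4, 31.5 and 38.4 RPKM in A6, B8 and C4, and 81.8, 83.3 and 85.6 RPKM in EB3-0, EB3-1 and EB3-2. The groups were far apart, C4 was the highest clone, and the EB3 cultures, EB3-0 included, lay within a narrow range. The means of the 3 libraries were 33.4 ± 4.36 RPKM for the clones and 83.6 ± 1.94 RPKM for EB3 (± SD, n = 3), so the clones held 40.0% of the EB3 level, and in bulk RNA fewer cells with the mRNA cannot be told apart from less of it per cell. The log2 fold change was -1.32 (SE 0.11, 95% interval -1.56 to -1.08; limma, adjusted p = 0.00378). In the exact permutation test, two-sided, p was 0.1, which is the smallest value that 3 libraries against 3 allow. By p the gene ranked 3 of all tested genes, and by size it ranked 10 among the 41 genes called lower. H2afz took 2.30% to 2.94% of the summed RPKM of the 8 members in the clones and 5.11% to 6.80% in EB3. It was also called in each of the 16 alternative settings, with log2 fold changes from -1.42 to -1.17 and adjusted p up to 0.0341, among them the fit in which EB3-1 and EB3-2 were averaged to 1 library (limma, adjusted p = 0.0210).

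**Figure D2:**
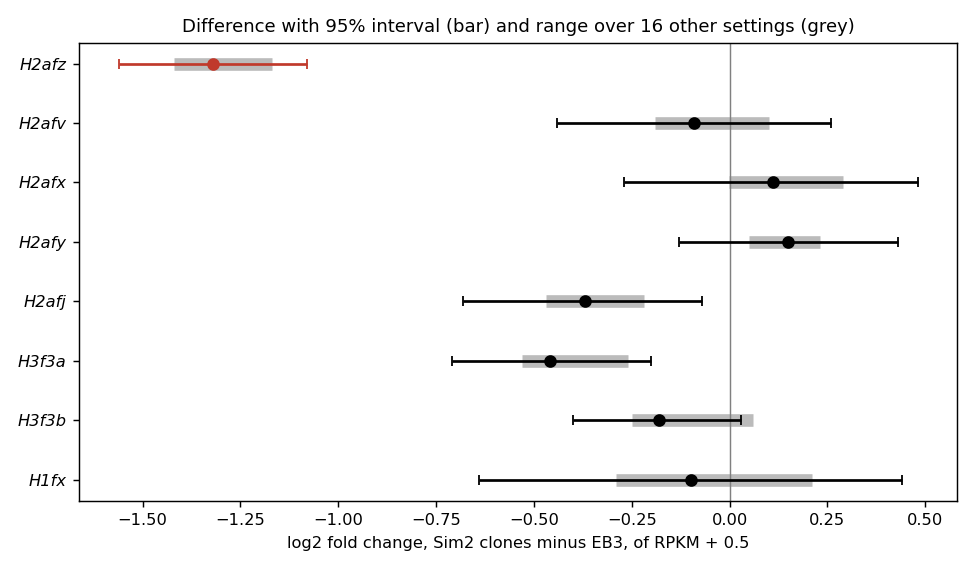
Log2 fold change of each member, Sim2 clones minus EB3, of RPKM + 0.5 (point) with its 95% interval from limma (bar) and the range over the 16 alternative settings (grey band). The interval of H2afz, in red, runs from -1.56 to -1.08 and touches no other, while the grey bands of H2afv, H2afx, H3f3b and H1fx reach across 0.

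The value of H2afz rests on reads that could also fit other places. Its annotated transcript of 1069 bases has 3 genomic copies of at least 90% identity over at least 50% of its length, of which 2 reach 95%. The closest is the pseudogene Gm8203, at chr6:116123650-116124515 on the + strand, which has no introns, matches 866 bases with 1 difference, and is identical over all 387 coding bases. Gm8203 is not one of the listed genes. H2afz has 5 exons, and of the 970 stretches of 100 bases in its transcript, 375 (38.7%) cross an exon junction. Among those, 371 (98.9%) occur exactly in a genomic copy, as do 754 (77.7%) of all the stretches. For H3f3a 77 of 275 junction stretches (28.0%) occur exactly in a copy, for H3f3b 6 of 297 (2.0%), and for H2afv 0 of 375 and H2afy 0 of 775. BWA, the aligner used, does not split reads over introns in the way a spliced aligner does, and how junction reads and reads with several equal positions were counted is not given in the sources used here.

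Over all tested genes, those with such copies had lower log2 fold changes than those without. A copy covering at least 50% of the transcript was searched for with minimap2 for the 11146 tested genes that have an annotated transcript. The median log2 fold change was 0.01 over the 9701 genes with no copy, -0.11 over the 270 genes with a best copy of 95% to 98% identity, -0.13 over the 146 genes at 98% to 99% and -0.14 over the 238 genes at 99% or more, where H2afz and H3f3a belong. Genes with a copy of at least 90% identity gave 17 called falls and 0 called rises among 996 genes, and genes with no copy gave 21 falls and 37 rises. The classes also differed in length, with a median cDNA of 2915 bases with no copy and 1188 bases at 99% or more. With length and GC trends removed the median at 99% or more was -0.07, and without EB3-0 it was -0.10. H2afz fell by 1.32 on the log2 scale, and in its class 3 of the 238 genes, H2afz included, fell by as much or more. Of the 9701 genes with no copy, 15 fell by as much or more. The part of genomic copies in the difference of H2afz was not tested.

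**Figure D3:**
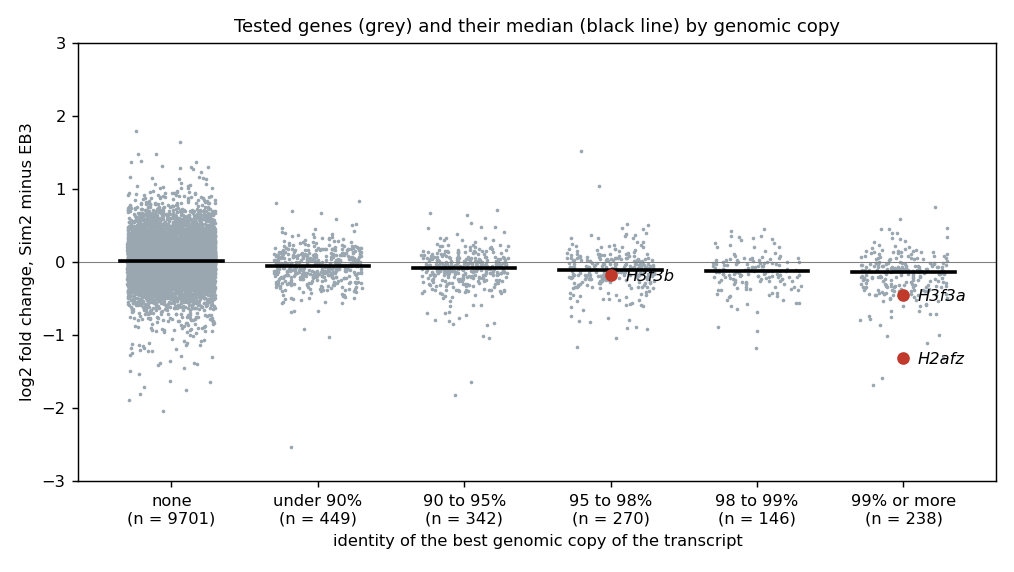
Log2 fold change (Sim2 clones minus EB3, RPKM + 0.5) of the tested genes, grouped by the identity of the closest genomic copy of their transcript, with the median as a black line and 3 members in red. The medians move from 0.01 with no copy to -0.14 at 99% or more, and H2afz lies at -1.32. Sim2, above the axis limit of 3, is not drawn.

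H2afv encodes H2A.Z.2, the second form of H2A.Z (chr11:6327229-6344446, - strand, cDNA 1636 bases). It read 56.4, 60.2 and 58.3 RPKM in A6, B8 and C4, and 80.5, 54.7 and 54.4 RPKM in EB3-0, EB3-1 and EB3-2. The clones lay between EB3-0 and the other EB3 cultures, so the groups overlapped. The difference was -0.09 on the log2 scale (95% interval -0.44 to 0.26; limma, adjusted p = 0.794), and it was 0.10 without EB3-0 and -0.19 without EB3-2. The interval leaves room for modest changes in either direction.

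Within each library the ratio of H2afz to H2afv was 0.538, 0.523 and 0.659 in A6, B8 and C4, and 1.02, 1.52 and 1.57 in EB3-0, EB3-1 and EB3-2. By these values H2afv was above H2afz in each clone, and H2afz was level with H2afv or above it in each EB3 culture. Of the 100-base stretches, 77.7% of those of H2afz and 0% of those of H2afv occur exactly in a genomic copy. The ratio and the sum of the pair therefore depend on how such reads were counted, which is not given. The log2 ratio differed by -1.24 between the groups (exact permutation test, two-sided, p = 0.1, the smallest possible). Without EB3-0 this was -1.44, and over the alternatives it ran from -1.44 to -1.13. The summed H2A.Z mRNA was 86.8, 91.7 and 96.7 RPKM in A6, B8 and C4, and 162, 138 and 140 RPKM in EB3-0, EB3-1 and EB3-2, a log2 difference of -0.68 with no overlap (exact permutation p = 0.1).

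**Figure D4:**
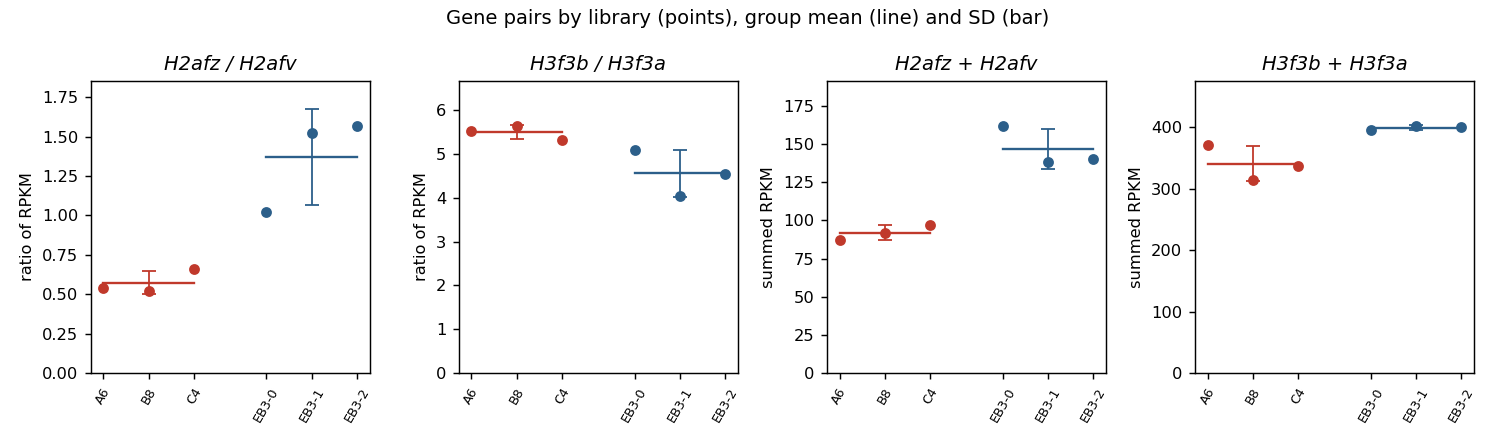
Ratio and sum of the RPKM of the H2A.Z genes and of the H3.3 genes in each library, Sim2 clones in red and EB3 in blue, with the group mean (line) and SD (bar, n = 3). The ratio of H2afz to H2afv is 0.523 to 0.659 in the clones and 1.02 to 1.57 in EB3, and the ratio of H3f3b to H3f3a is 5.33 to 5.65 and 4.04 to 5.10.

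H3f3a and H3f3b encode the same H3.3 protein. H3f3a (chr1:182732699-182743734, - strand, cDNA 1076 bases) read 56.9, 47.3 and 53.3 RPKM in A6, B8 and C4, and 64.7, 80.0 and 72.1 RPKM in EB3-0, EB3-1 and EB3-2. The groups did not overlap, and EB3-0 was the EB3 library nearest the clones. H3f3a differed by -0.46 on the log2 scale (SE 0.11, 95% interval -0.71 to -0.20), which was not called (limma, adjusted p = 0.101). Without EB3-0 it was -0.53 and was called (limma, adjusted p = 0.0350), in a fit that called 5.99% of the tested genes, and with length and GC trends removed it was -0.26. H3f3a has 9 genomic copies of at least 95% identity, the closest being the pseudogene Gm6421 at chr13:118146712-118147511, with 8 differences over 800 aligned bases.

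H3f3b (chr11:115883275-115885818, - strand, cDNA 1993 bases) was the more abundant H3.3 gene, with 314, 267 and 284 RPKM in A6, B8 and C4, and 330, 323 and 327 RPKM in EB3-0, EB3-1 and EB3-2. All clones were below all EB3 cultures, A6 only narrowly. Its log2 fold change of -0.18 (95% interval -0.40 to 0.03) was not called (limma, adjusted p = 0.360), and with length and GC trends removed it was 0.06, and with quantile normalization -0.09. H3f3b has 1 genomic copy, of 97.3% identity over 1057 aligned bases. The ratio of H3f3b to H3f3a was 5.52, 5.65 and 5.33 in the clones and 5.10, 4.04 and 4.54 in EB3, a log2 difference of 0.28 (exact permutation p = 0.1). With the length trend removed the difference in the ratio was 0.23 (exact permutation p = 0.4). With length and GC trends removed it was 0.32 (exact permutation p = 0.3). Without A6, B8 or C4 it was 0.27, 0.26 or 0.30, and the ratios of the groups still did not overlap. The exact permutation p was then 0.2, with 2 clones against 3 EB3 cultures. The summed H3.3 mRNA was 371, 314 and 337 RPKM in A6, B8 and C4, and 395, 403 and 400 RPKM in EB3-0, EB3-1 and EB3-2, a log2 difference of -0.23 (exact permutation p = 0.1), but with length and GC trends removed the difference in the sum was -0.0011.

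H2afx was the most abundant member (chr9:44142798-44144156, + strand, 1 exon), with 725, 669 and 726 RPKM in A6, B8 and C4 and 853, 566 and 585 RPKM in EB3-0, EB3-1 and EB3-2. The clones again lay between EB3-0 and the other EB3 cultures. Between the groups H2afx differed by 0.11 on the log2 scale (95% interval -0.27 to 0.48; limma, adjusted p = 0.780). Without EB3-0 it was 0.29 and was called (limma, adjusted p = 0.0413), in the fit that called 5.99% of the tested genes. Without EB3-1 or EB3-2 the difference was -0.00093 or 0.02. At its mean of 687 RPKM the gene ranked 44 of all listed genes, and it made up as much as 55.5% of the summed RPKM of the members in the clones, 53.2% in EB3-0, and 45.5% and 46.5% in EB3-1 and EB3-2.

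H2afj, a mammalian H2A variant close to canonical H2A (chr6:136756769-136758595, + strand, 1 exon), read 58.8, 56.2 and 61.0 RPKM in A6, B8 and C4, and 94.1, 66.4 and 70.2 RPKM in EB3-0, EB3-1 and EB3-2. The groups did not overlap, and the gap between C4 and EB3-1 was small beside the spread of EB3. H2afj differed by -0.37 on the log2 scale (95% interval -0.68 to -0.07; limma, adjusted p = 0.202), and by -0.22 without EB3-0. The adjusted p was 0.0823 or higher in all 16 alternatives.

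H2afy (chr13:56174983-56236911, - strand) read 50.4, 48.4 and 60.5 RPKM in A6, B8 and C4, and 53.9, 47.1 and 42.8 RPKM in EB3-0, EB3-1 and EB3-2. The groups overlapped, and the log2 fold change was 0.15 (95% interval -0.13 to 0.43; limma, adjusted p = 0.578). It was 0.05 without C4, 0.07 without EB3-2 and 0.23 without EB3-0. The annotation places another gene, Gm17253, across part of the span of H2afy on the opposite strand. Whether their exons overlap was not examined and whether counting used the strand is not given, so whether they share reads is not known. The same holds for Gm5577 across H1fx and the lincRNA Gm17275 across H3f3a.

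H1fx (chr6:87930415-87931476, - strand, 1 exon) was the least abundant member, with 26.0, 25.4 and 26.8 RPKM in A6, B8 and C4, and 43.6, 23.5 and 21.5 RPKM in EB3-0, EB3-1 and EB3-2. EB3-0 alone stood well above the rest. The difference of -0.10 on the log2 scale (95% interval -0.64 to 0.44; limma, adjusted p = 0.856) was not called, and it was 0.21 without EB3-0 and -0.29 without EB3-2.

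By mean level the members in EB3 ran from H2afx through H3f3b, H2afz, H2afj, H3f3a, H2afv and H2afy to H1fx. The ranges of neighbors in this order were apart for H2afx and H3f3b, for H3f3b and H2afz, and for H2afv and H2afy, and they overlapped for the other neighbors. In the Sim2 clones the order was H2afx, H3f3b, H2afj, H2afv, H2afy, H3f3a, H2afz and H1fx. Here H2afx, H3f3b and H2afj were apart from each other, H2afj to H3f3a overlapped step by step, and H2afz lay below H3f3a and above H1fx with no overlap. H2afz thus held position 3 in EB3 and position 7 in the clones. The positions of H2afz and H3f3a depend on how reads that also fit a genomic copy were counted, which is not given. H2afx, H2afj and H1fx have 1 exon, so 0% of their 100-base stretches cross an exon junction. In the other members 15.7% to 40.0% do. How junction reads were counted is not given, so the order of members with 1 exon against the others may also depend on it.

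The EB3-0 library differed from the other EB3 cultures with the base composition and the length of the genes. The median log2 ratio of EB3-0 to the mean of EB3-1 and EB3-2 was -0.30 over tested genes with under 45% GC, 0.22 over those with 60% or more, and also 0.22 over those with a cDNA of 900 to 2000 bases, as all the members have. Among the members this ratio was 0.96 for H1fx, with 69.8% GC, 0.57 for H2afx, with 62.6%, 0.46 for H2afj, with 54.5%, and 0.26 for H2afy, with 54.2%. H2afv, with 47.2% GC, had a ratio of 0.56, well above the median of -0.07 for genes with 45% to 50% GC and of 0.09 for those with such a length and under 50% GC. The ratio was -0.05 for H2afz, with 48.4% GC, 0.02 for H3f3b, with 41.2%, and -0.23 for H3f3a. The EB3 SDs of H2afv, H2afx, H2afj and H1fx therefore rest mainly on EB3-0, and that of H2afz does not.

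The factors that handle these histones were read from lists of the pathway genes. Of 19 listed and tested genes of the H2A.Z exchange complexes, 0 were called by limma, 2 were at an unadjusted p under 0.05, and the median log2 fold change was -0.09. The most abundant were the ATPase Ruvbl2 (131, 106 and 120 RPKM in the clones, 150, 118 and 114 in EB3), the H2A.Z chaperone Anp32e, which removes H2A.Z (98.9 to 111 RPKM against 109 to 126), the actin-related subunit Actl6a (63.7 to 76.5 against 77.4 to 78.1) and the SRCAP subunit Znhit1 (55.6 to 62.2 against 54.7 to 72.2). None of these 4 was called, with log2 fold changes from -0.16 to -0.05. Over all 19 genes the log2 fold changes ran from -0.60 to 0.32, with 13 negative and 6 positive.

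Of 8 H3.3 chaperone genes 0 were called by limma, with 2 at an unadjusted p under 0.05 and a median of 0.07. Without EB3-0 the median was -0.11 and 1 was called lower, Dek (-0.42; limma, adjusted p = 0.0295). In all libraries Dek read 84.5, 93.7 and 92.5 RPKM in A6, B8 and C4, and 93.9, 123 and 119 RPKM in EB3-0, EB3-1 and EB3-2, Asf1a 30.3 to 36.2 against 40.2 to 42.3 RPKM, Hira 26.4 to 27.2 against 29.5 to 30.6 RPKM, and Daxx 59.4 to 66.9 against 59.6 to 63.5 RPKM. The first 3 had groups that did not overlap, each lower in the clones, with log2 fold changes of -0.30, -0.30 and -0.16. Over all tested genes 13.4% were lower with no overlap. The log2 fold changes of the 8 chaperone genes ran from -0.30 to 0.39, and 5 of them were positive. Of 13 genes that act with H2A.X in the response to DNA breaks 0 were called by limma, 1 was at an unadjusted p under 0.05, and the median was 0.02, which became -0.14 without EB3-0. The most abundant of them, the H2A.X tyrosine kinase Baz1b, the H2A.X reader Mdc1, the ubiquitin ligase Rnf168 and Brca1, had log2 fold changes of 0.16, 0.17, -0.03 and 0.12.

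Among 17 general histone chaperones and assembly factors 1 was called, Npm3, a nucleoplasmin family member, which was lower in the clones. Npm3 read 39.1, 38.0 and 36.9 RPKM in A6, B8 and C4, and 62.6, 56.8 and 52.3 RPKM in EB3-0, EB3-1 and EB3-2, a log2 fold change of -0.58 (limma, adjusted p = 0.0418). Its relative Npm1 read 598, 641 and 642 RPKM against 861, 929 and 868 RPKM, a log2 fold change of -0.50 that was not called (limma, adjusted p = 0.0738), although its groups were far apart. Nasp (-0.06), the FACT subunit Ssrp1 (-0.11) and the acetyltransferase Hat1 (-0.12) were not called. The median of the list was -0.12, and 15 of the 17 log2 fold changes were negative. Without EB3-0 the median was -0.07 and 3 were called lower, Npm3, Npm1 and Nap1l1, the last a nucleosome assembly protein gene named only for that call. Npm3 was called in 7 of the 16 alternatives, and its call was lost when A6, B8, C4, EB3-1 or EB3-2 was left out (limma, adjusted p from 0.106 to 0.213).

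Other variant histones were read for 8 listed genes, of which 4 were tested and 0 called (0 also at an unadjusted p under 0.05 in limma), with a median of -0.33 that was -0.11 without B8 and -0.14 without EB3-0. Cenpa, the centromeric H3 variant, read 97.5, 101 and 87.7 RPKM in A6, B8 and C4, and 110, 94.5 and 89.6 RPKM in EB3-0, EB3-1 and EB3-2. The linker histone H1f0 read 34.8 to 46.3 against 42.3 to 65.6 RPKM, and the macroH2A2 gene H2afy2 read 8.03 to 16.4 against 14.5 to 23.0 RPKM. H2afy3 read 5.10 to 10.9 against 9.26 to 14.2 RPKM. In the 3 genes other than Cenpa B8 was the lowest clone.

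The canonical, replication-dependent histone genes end their mRNA in a stem-loop and are mostly lost when polyadenylated RNA is selected, and many are near-identical copies, so their values are low and uncertain. Of 68 such genes listed, 27 were tested and 2 were called, both lower, against 0.354% of all tested genes called lower. Hist1h2bc, which also gives polyadenylated mRNA, read 16.9, 15.9 and 15.2 RPKM in A6, B8 and C4, and 31.3, 25.6 and 24.8 RPKM in EB3-0, EB3-1 and EB3-2, a log2 fold change of -0.74 (limma, adjusted p = 0.0383). Hist2h3c1 read 1.00, 0.319 and 0.640 RPKM against 2.69, 3.52 and 3.09 RPKM, a log2 fold change of -1.68 (limma, adjusted p = 0.0314). Without A6, B8, C4, EB3-1 or EB3-2 the call of Hist1h2bc was lost (limma, adjusted p from 0.105 to 0.148), and that of Hist2h3c1 was lost without B8, C4, EB3-1 or EB3-2 (from 0.0643 to 0.148). Both calls were also lost with no filter and with EB3-1 and EB3-2 averaged. Hist1h2bc was called in 7 of the 16 alternatives, and Hist2h3c1 in 9 of the 15 in which it was tested. Hist1h1c (-0.12), Hist1h4i (-0.59) and Hist1h3g (-0.80) were not called. The median of the list was -0.21, with 19 of 27 log2 fold changes negative, and it depended on the libraries and the filter: -0.06 without EB3-0, -0.07 without B8, -0.37 without C4 and -0.59 for genes with a mean of at least 5 RPKM. Summed over the list the level was 85.8 to 118 RPKM in the clones, against 120 to 173 RPKM in EB3. Its part in the difference of H2afz was not tested.

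The 5 listed genes on each side of H2afz were read to see whether its neighborhood moved with it. 6 were tested and 0 were called by limma, 0 also at an unadjusted p under 0.05. The nearest, Dnajb14, a co-chaperone gene whose start lies 3.1 kb beyond that of H2afz, read 1.70, 1.22 and 1.57 RPKM in A6, B8 and C4, and 1.80, 2.46 and 1.72 RPKM in EB3-0, EB3-1 and EB3-2, a log2 fold change of -0.32 (SE 0.19). Lamtor3, at 54.0 kb, read 17.7 to 20.6 against 19.1 to 20.2 RPKM (-0.03), and Dapp1, at 66.4 kb, 9.23 to 10.2 against 10.8 to 11.3 RPKM (-0.16). Mttp, at 225.3 kb, had a log2 fold change of 0.12. On the other side Ddit4l and Ppp3ca had log2 fold changes of -0.27 and 0.15. 4 neighbors, 1700030L20Rik, Emcn, Gm4861 and Gm5105, were listed at 0 in each library.

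**Figure D5:**
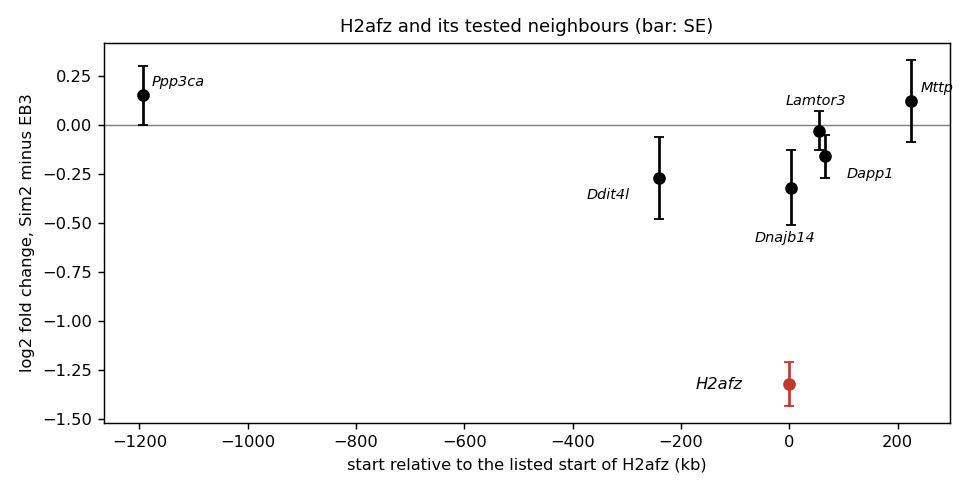
Log2 fold change (Sim2 clones minus EB3, RPKM + 0.5, bar SE) of H2afz, in red, and its 6 tested neighbors against the distance of their listed start from that of H2afz in kb. The neighbors lie between -0.32 and 0.15, and H2afz lies at -1.32.

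The genes whose levels followed H2afz most closely over the 6 libraries, on log2(RPKM + 0.5), were Memo1 (Pearson's r 0.998), Tmco1 (0.997), Impa1 (0.996), Mff (0.994) and Zfand6 (0.994). The points fall into the 2 groups, and 150 of the 11587 genes compared had r of at least 0.95, so r describes a shared step between the groups. Zfand6 read 30.5, 30.9 and 33.6 RPKM in A6, B8 and C4, and 46.3, 48.6 and 45.6 RPKM in EB3-0, EB3-1 and EB3-2, and was called (log2 fold change -0.56; limma, adjusted p = 0.0382). Zfand6 was called in 7 of the 16 alternatives, with adjusted p up to 0.216, and the call was lost without A6, B8, C4, EB3-1 or EB3-2, with EB3-1 and EB3-2 averaged, with no filter, with voom and with length and GC trends removed. The other 4 were not called, with log2 fold changes from -0.43 for Impa1 to -0.24 for Mff, all much smaller than that of H2afz.

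Most markers of other cell types were low. Summed levels in the clones and in EB3 were 3.12 to 3.97 and 1.93 to 2.50 RPKM for 4 primitive endoderm markers, 0.781 to 0.995 and 0.656 to 1.16 RPKM for 3 mesoderm markers, 85.0 to 106 and 125 to 143 RPKM for 4 neural markers (mostly Tubb3), 5.90 to 22.2 and 4.28 to 5.34 RPKM for 3 trophectoderm markers, and up to 13.8 and 13.3 RPKM for 4 fibroblast markers (mostly Thy1). None of the markers tested was called. The neural genes went in opposite directions, with Tubb3 lower in each clone than in the EB3 cultures (-0.60), and Nes at 8.30 to 9.15 against 5.75 to 6.03 RPKM (0.54), which without EB3-0 was called (limma, adjusted p = 0.0396). Gata4, Gata6, Sox17, T, Mixl1, Hand1, Cdx2, Elf5, Col1a1, Col1a2 and Col3a1 were each below 1 RPKM in all libraries. Krt8 was at 21.7 RPKM in B8 and at 7.95 and 5.21 RPKM in A6 and C4. The part of other cell types in the difference of H2afz was not tested.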

How the data were processed

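Messenger RNA of 6 mES cell cultures was sequenced with the TruSeq kit, 3 from Sim2 clones and 3 from EB3, and groups were taken from the sample labels. The authors aligned the reads to mm9 with BWA, counted the coverage of RefSeq exons with a custom pipeline and deposited RPKM per gene and library. The authors tested differences with edgeR. Versions, the use of strand and the treatment of reads with several positions are not given in the sources used here. The table lists 22602 genes, and every per-sample column was used.

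RPKM multiplied by cDNA length was a whole multiple (within 0.01) of 1 step per library for 100% of values, which gave back 25095861 reads in A6 to 28269340 in C4. For H2afz 729 to 2139 reads were recovered per library, a counting error of 3.70% to 2.16%, which is a lower limit because both mates of a pair may be counted.

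Values were tested as log2(RPKM + 0.5) with limma 3.58.1 in R 4.3.3 (lmFit, eBayes with trend, no covariate, all 6 libraries) for 11595 genes with a mean of at least 1 RPKM, with Benjamini-Hochberg adjustment and a threshold of 0.05. The fold changes understate the change of low genes. Pair ratios, pair sums and single members also had a two-sided exact permutation test. P-values measure only the spread between these cultures. Alternatives changed the pseudocount, filter, scaling, length and GC trends (splines with 5 degrees of freedom), weights (voom on recovered reads) and libraries. Genomic copies were found with minimap2 2.31 (preset asm20, at least 50% of the transcript) in the mm9 genome. An annotated transcript of the same build was found for 96.1% of tested genes, by symbol and nearest length.

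The named genes were the 8 members, Sim2, the called and the 4 most abundant tested genes of each list, the neighbors of H2afz and the 5 genes most like it. Members and lists were chosen with earlier results of these data known. Protein sequences were not used here.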

Additional observations from a re-analysis of the deposited data

How the results depend on the processing

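H2afz kept its direction and its call in all 16 alternatives, and the ratio and the sum of the H2A.Z pair kept their direction in all that were run for them. The number of genes called over all tested genes, 81, was 28 with no filter on low values, 250 with the length trend removed, 187 with length and GC trends removed and 6 with EB3-1 and EB3-2 averaged, and it ran from 6 to 694 when 1 library was left out, the 694 without EB3-0. The share of these calls that was higher was 49.4%, and it was 39.4% with median centring and 60.4% with length and GC trends removed. The number of members called, 1, ran from 1 to 3 when 1 library was left out, the 3 without EB3-0 being H2afz, H2afx and H3f3a. Called genes over the histone lists, 3, were 0 with no filter, 1 with median centring and 0 with EB3-1 and EB3-2 averaged, and ran from 0 to 6 when 1 library was left out. With length and GC trends removed the log2 fold change of H2afv was 0.03 and of H3f3b 0.06, and the log2 difference in the sum was -0.55 for the H2A.Z pair and -0.0011 for the H3.3 pair. Over the fits that left out 1 library the log2 fold change ran from -0.19 to 0.10 for H2afv and from -0.29 to 0.21 for H1fx, with the highest value of both without EB3-0, and from -0.00093 (without EB3-1) to 0.29 (without EB3-0) for H2afx. The cause of these changes was not tested. No paired analysis was possible because the clones are named A6, B8 and C4 and the EB3 cultures 0, 1 and 2, so no replicate number is shared. With 3 libraries a group the exact tests cannot go below 0.1.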
